A study of Mus musculus with 6 samples.

Results

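The proteasome genes of NKp46+ innate lymphocytes were compared between spleen, intestine and skin. Members were all probes whose gene symbol began with Psma, Psmb, Psmc, Psmd, Psme, Psmf or Psmg, a rule that uses names alone and no measured value. It found 72 probes of 43 symbols among the 46643 probes and 33717 symbols of the array, and no symbol beginning with Psmg. The cells came from 12-week-old male RAG-2-KO mice of the C57BL/6 strain, which lack mature T and B lymphocytes in all 3 groups. They were sorted as CD45+, CD3-, Nkp46+ and NK11+ from spleen, intestine or skin, with no treatment, and RNA was hybridised to Illumina BeadChip arrays, 2 arrays per tissue. The series as a whole concerns the part that ROR gamma-t plays in NKp46+ cells of gut and skin. Nothing in the labels says whether the arrays of a tissue came from separate animals or pools, so the p-values below rest on a spread that may be technical.

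The proteasome is the barrel-shaped protease that degrades ubiquitin-tagged proteins. Outer rings of alpha subunits (Psma genes) gate the core particle, and inner rings of beta subunits (Psmb genes) hold its active sites. A regulatory cap, built of a base with ATPases (Psmc genes) and scaffold subunits and of a lid (both Psmd genes), recognises, unfolds and feeds in the substrate. In immune cells and under interferon-gamma, the catalytic subunits Psmb5, Psmb6 and Psmb7 can be replaced by Psmb8, Psmb9 and Psmb10, which gives the immunoproteasome, best known for making peptides for MHC class I. Activators (Psme genes) can dock in place of the cap, and Psmf1 is an inhibitor of the core.

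The Psmb9 gene shares its start region with Tap1, which encodes a chain of the transporter that carries proteasome products into the endoplasmic reticulum. The stretch between both start sites is shown because Psmb9 and Tap1 can be compared as neighbours of 1 promoter. It is chr17:34187331-34187555 of GRCm38.p6, 225 bases, from RefSeq, written on the minus strand so that it ends at the Psmb9 start, with the CCAAT box of the other strand in capitals. The 120 bases before the starts of 3 further catalytic genes are shown for contrast. They are chr11:70525237-70525356 (Psmb6, plus strand), chr17:34198075-34198194 (Psmb8, plus strand) and chr14:54617996-54618115 (Psmb5, minus strand), with the letters of an antioxidant response core (TGACNNNGC) or an interferon regulatory factor core (AANNGAAA) on either strand in capitals.
Psmb9 to Tap1: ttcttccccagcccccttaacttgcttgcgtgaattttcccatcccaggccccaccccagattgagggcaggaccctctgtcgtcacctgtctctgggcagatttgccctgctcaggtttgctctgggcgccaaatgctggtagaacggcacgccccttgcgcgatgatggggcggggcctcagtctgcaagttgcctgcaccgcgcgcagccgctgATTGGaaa
Psmb6: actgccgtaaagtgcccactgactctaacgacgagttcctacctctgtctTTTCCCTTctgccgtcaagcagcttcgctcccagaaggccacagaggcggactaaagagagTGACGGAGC
Psmb8: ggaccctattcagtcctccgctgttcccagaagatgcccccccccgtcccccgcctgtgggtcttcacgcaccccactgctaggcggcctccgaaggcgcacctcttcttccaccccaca
Psmb5: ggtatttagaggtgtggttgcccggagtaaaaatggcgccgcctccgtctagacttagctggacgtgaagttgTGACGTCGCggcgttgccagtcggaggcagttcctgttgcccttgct

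Of the 43 symbols, 37 matched the RefSeq promoter table, whose windows hold 250 bases before and 50 after a start. The antioxidant response core, TGACNNNGC on either strand, was found in 6 of the 37, which were Psmb5, Psmb6, Psmc6, Psmd12, Psmd9 and Psme4, or 16.2% against 12.4% of all 32851 windows. An interferon regulatory factor core, AANNGAAA on either strand, was found in 10, Psmb3, Psmb4, Psmb6 and Psme1 among them (27.0% against 23.9%). The CCAAT box stood in 14 of the 37 (37.8% against 37.4%), Psmb9 and Psmb3 among them. These are matches of letters and not shown sites, and the windows of Psmb8, Psmb9 and Psmb10 lack the letters of both response cores, which says nothing of those factors.

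Each array held a background-subtracted signal per probe, scaled to a mean of 83.1. Probes detected at a detection p under 0.01 made up 39.2% and 39.7% of the spleen arrays, 35.5% and 32.8% of the intestine arrays, and 32.6% and 35.3% of the skin arrays. Replicate I of all 3 tissues shared 1 slide number in the file headers and replicate II another, so tissues can be compared within slides. The sort markers Ncr1, Klrb1c (NK1.1) and Ptprc (CD45) were detected on all 6 arrays. The summed signal of 7 NK markers was 5866 to 5919 in spleen, 2650 to 2705 in intestine and 4653 to 4786 in skin. Markers of other cells also differed, and their part in the results below was not tested. The sum of 5 erythroid markers was 11619 to 17492 in spleen, 692 to 1110 in intestine and 781 to 1018 in skin. Of 5 proliferation markers, all detected, the sum was 221 to 273 in spleen, 56.1 to 97.5 in intestine and 676 to 687 in skin. The T cell list summed to 435 to 711 in intestine against 235 to 312 in spleen and 162 to 199 in skin, through Cd3g, with Cd3e and Cd4 not detected anywhere. For 7 macrophage markers on the array the sum was 144 to 176, 61.6 to 73.8 and 72.3 to 103 in the same order, with Csf1r and Cd14 not detected. The endothelial list (4 genes, Cdh5 and Emcn not detected) reached 576 to 749 in intestine, mostly Pecam1, against 242 to 248 in spleen and 200.4 to 242 in skin. The summed B and plasma cell, mast cell, gut epithelium, keratinocyte and fibroblast lists stayed at or below 52.3 on every array, and the neutrophil list reached 142 on 1 spleen array and 14.8 or less on the others.

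Most proteasome genes were well measured and differed by less than 2-fold between the tissues. Of the 43 symbols, 39 had a probe that passed the detection filter, and for 38 of these the probe used was detected on all 6 arrays (Psmc1, on 4, is the exception). Psma5, Psma6, Psmc6 and Psmd11 had no such probe and were not tested. The median signal of the 39 genes, over their mean on the 6 arrays, was 563, against 37.4 over all 14187 genes tested, which describes how bright the probes were and not how transcripts of different genes compare. Differences below are log2 values after quantile normalization of the signal plus 16, from limma with Benjamini-Hochberg adjustment over all 14187 genes, and "higher" and "lower" are called at an adjusted p under 0.05. These folds are not the ratios of the deposited signals. The fitted difference was smaller in size than the log2 ratio of the mean deposited signals for 29, 19 and 31 of the 39 genes in intestine against spleen, skin against spleen and intestine against skin, and larger for the other 10, 20 and 8.

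Between intestine and spleen, 1 of the 39 genes rose, 11 fell and 27 did not pass the test. Of all genes tested 49.2% were called, 20.9% higher and 28.3% lower, so that the 28.2% of proteasome genes that fell was close to the share of all genes and the 2.56% that rose was below it. The median difference was -0.14, against -0.05 over all genes, and ran from -0.96 to 0.61. Between skin and spleen 5 rose, 3 fell and 31 did not pass, or 12.8% and 7.69%, where 24.2% of all genes were called, 12.7% higher and 11.5% lower. The median was 0.11 against -0.01. Between intestine and skin none rose, 11 fell and 28 did not pass, or 28.2% lower, where 38.8% of all genes were called, 16.4% higher and 22.4% lower. The median was -0.21 against -0.07, and 31 of the 39 differences were negative. Over all genes the difference was -0.0084 at percentile 56 and 0.0021 at percentile 57, so most of them were negative as well. The 3 comparisons share arrays, so their counts are not independent.

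No proteasome subunit passed both the test and a 2-fold change in any comparison. Among all genes 14.0% did so between intestine and spleen, 2.57% between skin and spleen and 11.2% between intestine and skin. The single member that did so, Psmc3ip (1.60-fold with an offset of 50 in place of 16), is named for an interaction with Psmc3 and is a meiotic recombination cofactor, not a subunit. With the deposited scaling alone Psma4, Psmb3, Psmd5, Psmd7 and Psmd10 also passed both in intestine against spleen, as did Psmb3 there without intestine replicate I, and Psme3 in skin against spleen without spleen replicate II or skin replicate II. The median size of the difference, whatever its sign, was 0.27 for the 39 genes against 0.40 for all genes between intestine and spleen, 0.24 against 0.28 between skin and spleen, and 0.23 against 0.32 between intestine and skin. All 31 calls had 1 sign on both slides, which is no separate support, since the calls were made on these same arrays.

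**Figure D1:**
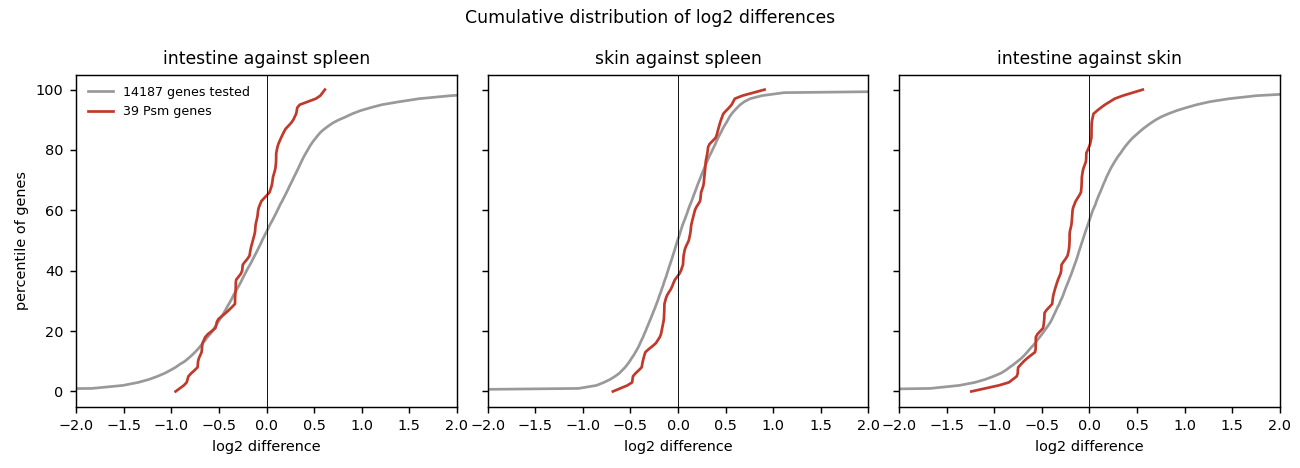
Percentile of genes (vertical) against log2 difference (horizontal) for the 39 Psm genes (red) and the 14187 genes tested (grey), 1 panel per comparison. The red curves span -0.96 to 0.61, -0.68 to 0.91 and -1.24 to 0.56, inside the tails of the grey curves, and lie to the left of 0 for 31 of 39 genes in intestine against skin. There the grey curve crosses 0 between percentiles 56 and 57.

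The split of calls depended on how arrays were scaled, for the proteasome genes and for all genes, though not to the same extent. Scaling to the median of the kept probes moved the median of all genes between intestine and spleen from -0.05 to 0.10, and the deposited scaling alone moved it to -0.25. With these, 9 proteasome genes rose and 10 fell, or none rose and 18 fell, and higher calls made up 58.5% or 25.5% of the calls of all genes in place of 42.5%. Between skin and spleen the settings gave 9 higher and 1 lower, or 2 higher and 8 lower, with 70.6% or 35.1% of calls higher in place of 52.6%, and medians of all genes of 0.10 and -0.13. Between intestine and skin they gave 0 higher and 11 lower, or 0 higher and 15 lower, with 44.2% or 31.0% of calls higher in place of 42.3%. Of the 11 lower calls between intestine and skin, 10 were shared with median scaling, which lost Psmb3 and added Psmd10, and all 11 with the deposited scaling alone. Against spleen no direction can be given for the family as a whole.

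**Figure D2:**
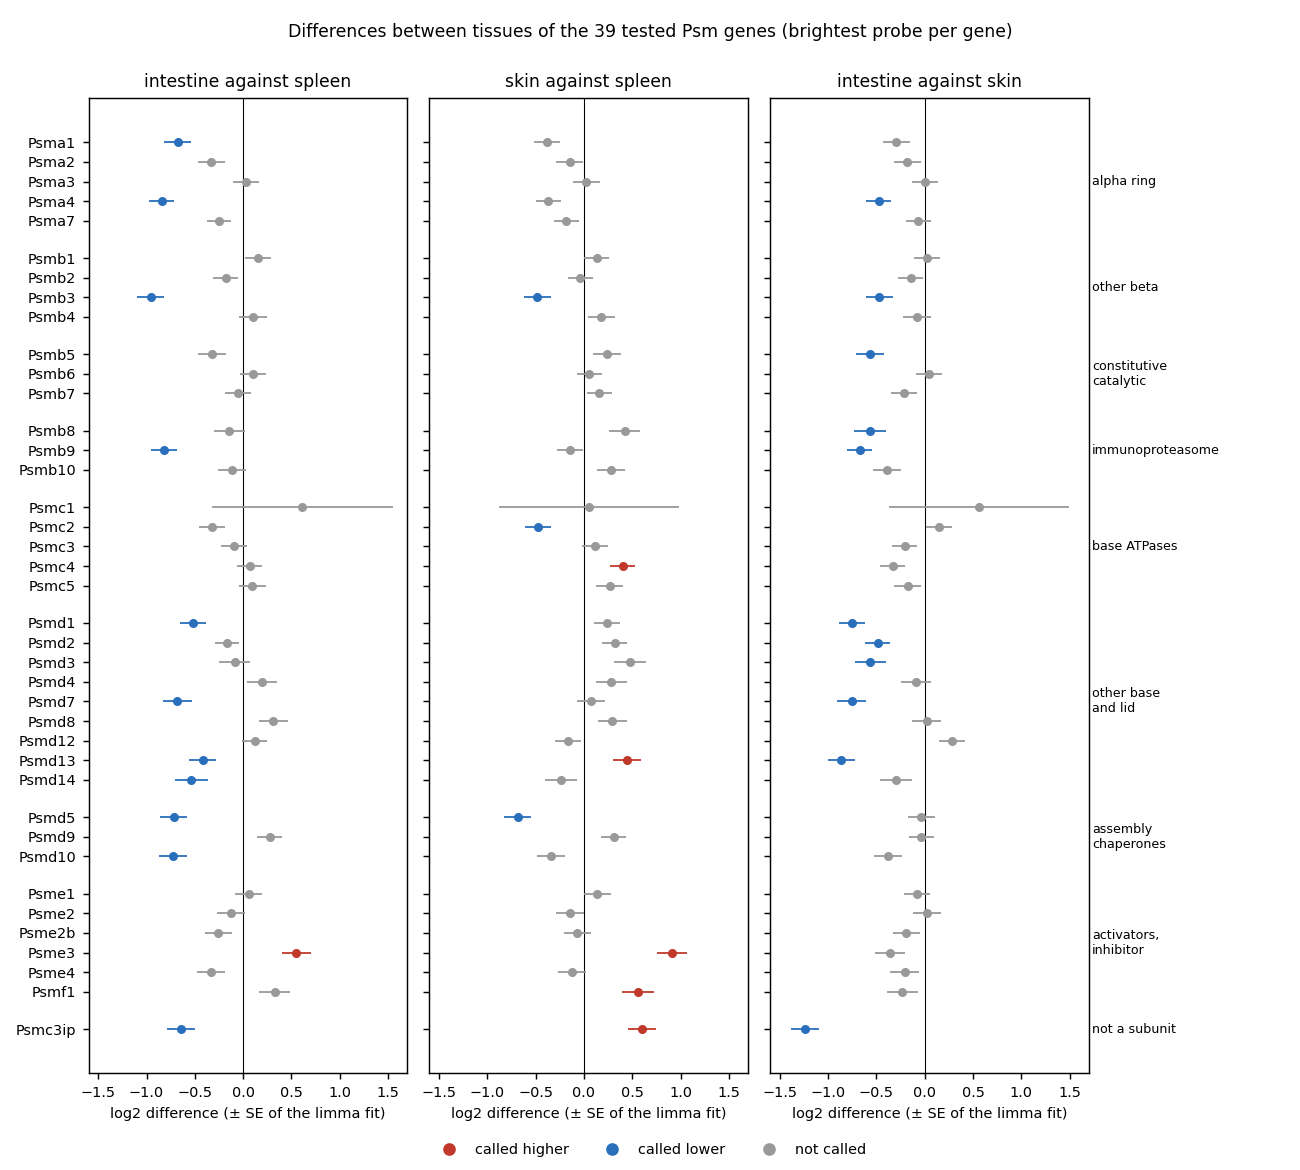
Log2 difference with its SE from limma (horizontal) for each of the 39 tested genes (vertical, grouped by role), in intestine against spleen, skin against spleen and intestine against skin. Red and blue points are the genes called higher and lower at an adjusted p under 0.05, from 2 arrays per tissue. In the right panel the blue points include 5 base and lid subunits and Psmb8 and Psmb9, Psme3 and Psmf1 are red in the middle one, and the long bar is Psmc1.

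Of the immunoproteasome genes, Psmb9 was called low in intestine against both other tissues. Psmb9, the inducible counterpart of Psmb6, had signals of 1071 and 1009 for spleen, 511 and 541 for intestine and 863 and 877 for skin. The intestine arrays were the lowest, with no overlap. Psmb9 fell by 0.82 ± 0.13 (SE, 2 arrays per tissue) in intestine against spleen, 1.76-fold (adjusted p = 0.000684), and by 0.67 ± 0.13 against skin, 1.60-fold (adjusted p = 0.00265). Skin differed from spleen by -0.14 ± 0.13 (adjusted p = 0.438). Both calls held in all 15 alternative settings, over which the difference from spleen ran from -0.96 to -0.60. Psmb9 has a single probe, which no other probe can check. Settings that change only the probes kept, their averaging or the slide block leave its difference as it is. By slide, the difference from spleen was -0.92 and -0.71, and that from skin -0.74 and -0.61. In these sorted bulk samples, fewer cells that express a gene and less RNA per cell cannot be told apart.

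Psmb6, the constitutive subunit that Psmb9 replaces, did not pass the test in any comparison. It had signals of 1086 and 1004 for spleen, 1026 and 1029 for intestine and 981 and 1051 for skin. The differences were 0.10 ± 0.13, 0.06 ± 0.13 and 0.04 ± 0.13 for intestine against spleen, skin against spleen and intestine against skin. Under median scaling the first of these was called higher (0.34, adjusted p = 0.0493). The change of Psmb9 between intestine and spleen was thus more negative than that of Psmb6 by 0.93 log2 units on slide 1 and 0.91 on slide 2. Between intestine and skin the gap was 0.78 and 0.65, and between skin and spleen 0.15 and 0.26. With 1 gap per slide these differences of changes are descriptions without a test.

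Tap1, across the shared start region shown above, had signals of 146 and 155 for spleen, 97.9 and 99.0 for intestine and 117 and 155 for skin. Its differences did not pass the test, at -0.12 ± 0.15 for intestine against spleen (adjusted p = 0.51) and -0.24 ± 0.15 for intestine against skin (adjusted p = 0.245). The change of Psmb9 was the more negative by 0.83 and 0.56 on slides 1 and 2 for intestine against spleen, and by 0.66 and 0.21 for intestine against skin. On the normalized scale Psmb9 thus lay further below the other tissues than its neighbour on both slides, a gap that was not tested. The deposited Tap1 signals of intestine also lay below those of spleen and skin without overlap, and the gap was not computed on them.

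Psmb8, the counterpart of Psmb5, was lower in intestine than in skin. Its brightest probe had signals of 3299 and 2659 for spleen, 2831 and 2843 for intestine and 4641 and 3960 for skin. Psmb8 fell by 0.57 ± 0.16 in intestine against skin, 1.48-fold (adjusted p = 0.0192). Leaving out intestine replicate I (adjusted p = 0.0738) or skin replicate I (0.125) ended the call. Against spleen that probe gave -0.14 ± 0.16 in intestine (adjusted p = 0.479) and 0.42 ± 0.16 in skin (adjusted p = 0.0808). Skin was called higher if only the deposited scaling was kept (0.53, adjusted p = 0.0225) or if arrays were scaled to their medians (0.76, adjusted p = 0.00393), and the mean of the gene's probes was called lower in intestine (-0.42, adjusted p = 0.0175).

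The other Psmb8 probes agreed on intestine and skin but not on spleen. The next brightest had 2709 and 2774 for spleen, 1554 and 1287 for intestine and 1905 and 2127 for skin, so that spleen was the highest tissue. In the fit over all 18583 kept probes this probe was lower in intestine than spleen (-0.97, adjusted p = 0.000348), lower in skin than spleen (-0.47, adjusted p = 0.0371), and lower in intestine than skin (-0.50, adjusted p = 0.0174). The dimmest had 277 and 285, 188 and 193, and 296 and 293, with differences of -0.15, 0.30 and -0.45, the last at an adjusted p of 0.0216. No direction of Psmb8 against spleen can therefore be given, and which transcripts each probe measures was not analysed here.

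Psmb10, the counterpart of Psmb7, followed the same order between intestine and skin without passing the test. Its brightest probe had 1039 and 1084 for spleen, 832 and 954 for intestine and 1235 and 1172 for skin. Intestine against skin was -0.39 ± 0.15 (adjusted p = 0.0568), which passed in 6 of the 15 alternatives, among them the fit that blocks on the slide (adjusted p = 0.0496). The other probe, with 951 and 929, 616 and 697, and 854 and 908, gave -0.38 (adjusted p = 0.0591). Against spleen the brightest probe gave -0.12 ± 0.15 in intestine and 0.28 ± 0.15 in skin, and neither passed (the other probe gave 0.01 in skin), though median scaling called skin higher (0.40, adjusted p = 0.0426). On all 6 probes of the 3 genes both intestine arrays lay below both skin arrays. After normalization 28 of the 39 genes had no overlap between these tissues, and the share over all genes was not computed. Probes of 1 gene are repeat measures on the same arrays, so nothing is read from either count.

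**Figure D3:**
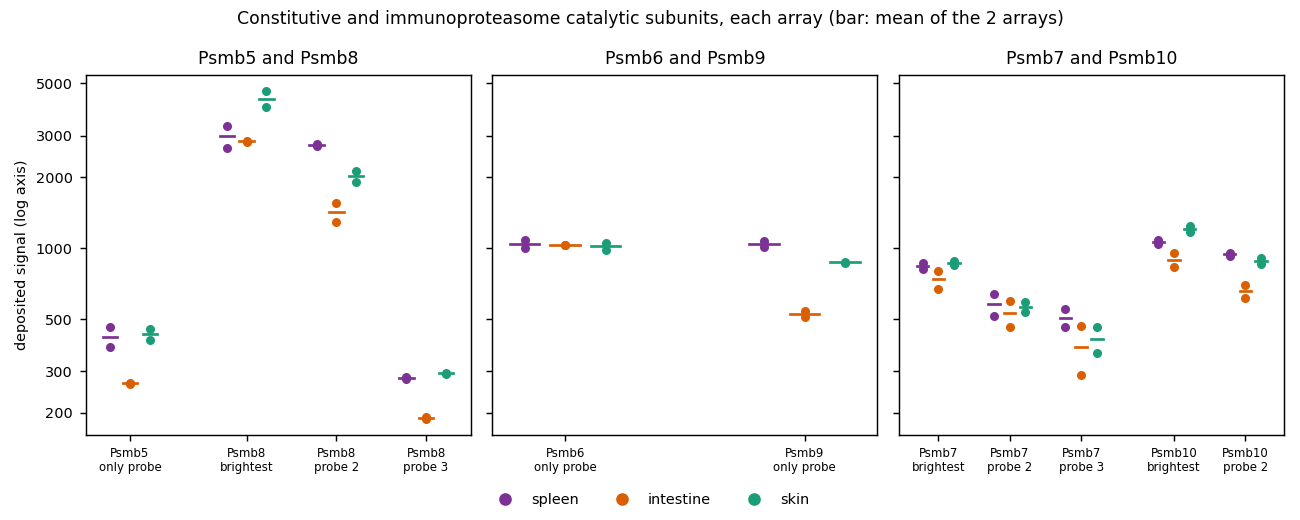
Deposited signal (vertical, log axis) on each of the 6 arrays for every kept probe of the constitutive subunits Psmb5, Psmb6 and Psmb7 and of the immunoproteasome subunits Psmb8, Psmb9 and Psmb10; the bar is the mean of the 2 arrays of a tissue. Psmb9 drops to 511 and 541 in intestine while Psmb6 stays at 981 to 1086 on all arrays, and the Psmb8 probes differ in where spleen lies.

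The constitutive Psmb5, which carries the chymotrypsin-like activity, was lower in intestine than in skin as well. It had 461 and 381 for spleen, 265 and 268 for intestine and 455 and 407 for skin. Psmb5 fell by 0.56 ± 0.15 in intestine against skin, 1.48-fold (adjusted p = 0.0115, and 0.0765 without skin replicate I), and differed from spleen by -0.32 ± 0.15 (adjusted p = 0.0888, but 0.00352 with the deposited scaling alone and 0.0443 with an offset of 50) in intestine and 0.24 ± 0.15 in skin. Its change between intestine and skin was close to that of the brightest Psmb8 probe, with gaps of -0.08 and 0.07 on the slides. The differences of Psmb7, the trypsin-like subunit, were -0.05 ± 0.13, 0.16 ± 0.13 and -0.21 ± 0.13, none called. Its signals were 864 and 817 in spleen, 802 and 673 in intestine, and in skin 878 and 849. Its other probes gave 0.09 for intestine against spleen, -0.11 for skin against spleen and -0.05 for intestine against skin where they departed from these values.

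Among the other beta subunits, Psmb3 fell and Psmb1, Psmb2 and Psmb4 were not called in any comparison. Under median scaling Psmb1 and Psmb4 were called higher in intestine against spleen. Psmb3, a structural subunit without an active site, had 1653 and 1536 for spleen, 881 and 684 for intestine and 1082 and 1134 for skin, so that the tissues stood in separate ranges with spleen the highest. It fell by 0.96 ± 0.14 in intestine against spleen, 1.94-fold (adjusted p = 0.000382), a call that held in all 15 alternatives. This was the most negative difference of the family in that comparison. A second bright probe gave -0.63 (adjusted p = 0.00663). The fall in skin against spleen, -0.48 ± 0.14 (adjusted p = 0.0342), ended without any 1 of the spleen or skin arrays (adjusted p from 0.0825 to 0.427), under median scaling (-0.29, adjusted p = 0.172), with the mean of the probes (-0.32, 0.108) and with no filter on dim probes (0.0835), and the other probe gave -0.15. That in intestine against skin, -0.47 ± 0.14 (adjusted p = 0.0226), ended without intestine replicate II or either skin array (0.0708 to 0.0899), under median scaling (-0.37, adjusted p = 0.0807) and with no filter (0.0579), and the other probe gave -0.48.

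Of the 5 alpha-ring genes tested, Psma1 and Psma4 fell in intestine and Psma2, Psma3 and Psma7 were not called in any comparison. In intestine against spleen, median scaling called Psma3 higher, and an offset of 50 called Psma2 and Psma7 lower. Of all genes 28.3% fell in intestine against spleen and 22.4% against skin, and with 5 genes nothing is read from the count. Psma4 had 895 and 882 for spleen, 453 and 403 for intestine and 630 and 617 for skin. It fell by 0.84 ± 0.13 in intestine against spleen, 1.79-fold (adjusted p = 0.000472), in all 15 alternatives. It also fell by 0.48 ± 0.13 in intestine against skin (adjusted p = 0.0143, and 0.0628 without skin replicate I), while skin against spleen was -0.37 ± 0.13 (adjusted p = 0.0608). Psma1, with 682 and 611, 367 and 311, and 456 and 426, fell by 0.68 ± 0.14 in intestine against spleen (adjusted p = 0.00276), also in all 15. Its skin against spleen difference of -0.38 ± 0.14 (adjusted p = 0.0671) passed in the fit that blocks on the slide (0.0499). In intestine against spleen Psma3 was at 0.03 ± 0.14 where Psma4 was at -0.84.

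Of 9 base and lid genes of the cap other than the ATPases, 5 fell in intestine against skin, none rose and 4 did not pass, with a median of -0.49. That is 55.6% of the 9, where 22.4% of all genes were called lower at a median of -0.07, a comparison of shares without a test. The 5 were Psmd1 and Psmd2, the large scaffold subunits of the base, and the lid subunits Psmd3, Psmd7 and Psmd13. Against spleen, 4 fell in intestine (Psmd1, Psmd7, Psmd13 and the lid deubiquitinase Psmd14), or 44.4% where 28.3% of all genes fell, and 1 rose in skin (Psmd13), or 11.1% where 12.7% rose.

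Psmd13 had the most negative difference of the cap between intestine and skin. Its signals were 985 and 1136 for spleen, 705 and 716 for intestine and 1345 and 1343 for skin, which put the tissues in 3 separate ranges. It fell by 0.86 ± 0.14 in intestine against skin, 1.82-fold (adjusted p = 0.000906), in all 15 alternatives. The fall of 0.42 ± 0.14 in intestine against spleen (adjusted p = 0.0321) ended without either spleen array or intestine replicate I (0.0603 to 0.255), under median scaling (-0.20, adjusted p = 0.228) and with no filter (0.0833). The rise of 0.45 ± 0.14 in skin against spleen (adjusted p = 0.0445) ended without any 1 of the spleen or skin arrays (0.0995 to 0.308), with the deposited scaling alone (0.34, adjusted p = 0.0775), with no filter (0.108) and with the mean of the probes (0.14, 0.454). Its other probe had 417 and 444, 209 and 171, and 361 and 297. That probe gave -0.61 for intestine against skin (adjusted p = 0.012) and -0.78 for intestine against spleen (adjusted p = 0.00281), but -0.16 for skin against spleen.

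Psmd7, the partner of the deubiquitinase Psmd14, had 426 and 338 for spleen, 178 and 178 for intestine and 355 and 330 for skin, with intestine the lowest. It fell by 0.75 ± 0.15 against skin (adjusted p = 0.00286) and by 0.68 ± 0.15 against spleen (adjusted p = 0.00419, and 0.0658 without spleen replicate I), and by 1.03 against spleen with the deposited scaling alone. The call against skin ended when the gene's probes were averaged (adjusted p = 0.141), since a dim probe gave 0.36 there and -0.69 for skin against spleen, and the third gave -0.36 and -0.31.

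Psmd1, with 1140.1 and 1088 for spleen, 744 and 672 for intestine and 1145 and 1323 for skin, fell by 0.75 ± 0.13 against skin (adjusted p = 0.00158), in all 15 alternatives. Against spleen it fell by 0.52 ± 0.13 (adjusted p = 0.0099), a call that ended without spleen replicate I (0.0849) or II (0.0592) and under median scaling (-0.28, adjusted p = 0.109). The fall of Psmd2 against skin was -0.49 ± 0.13 (adjusted p = 0.0131, and 0.0608 without skin replicate I), and it was -0.29 with the mean of the probes (0.0902), since a dimmer probe gave -0.10. That of Psmd3 was -0.56 ± 0.16 (adjusted p = 0.0189), and ended without intestine replicate I (0.0987) or skin replicate II (0.105). Psmd3 in skin against spleen, 0.48 ± 0.16 (adjusted p = 0.0551), passed in the fit that blocks on the slide (0.0353). Psmd14, with 173 and 119, 71.1 and 61.5, and 99.2 and 95.6, fell by 0.54 ± 0.17 in intestine against spleen (adjusted p = 0.0249), but not without spleen replicate I (0.272) or intestine replicate II (0.0919) or with no filter (0.0522), and the deposited scaling alone gave -0.96. The ubiquitin receptor Psmd4 and the lid subunits Psmd8 and Psmd12 were not called in any comparison with the main settings. Median scaling called Psmd4 and Psmd8 higher in intestine against spleen, and the deposited scaling alone called Psmd12 lower in skin against spleen. The dimmer Psmd2 probe was lower in intestine against spleen (-0.43, adjusted p = 0.0296), where the brightest was not called. Proliferation markers were also lower in intestine than in skin, as given above, and whether they move with these subunits was not tested.

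**Figure D4:**
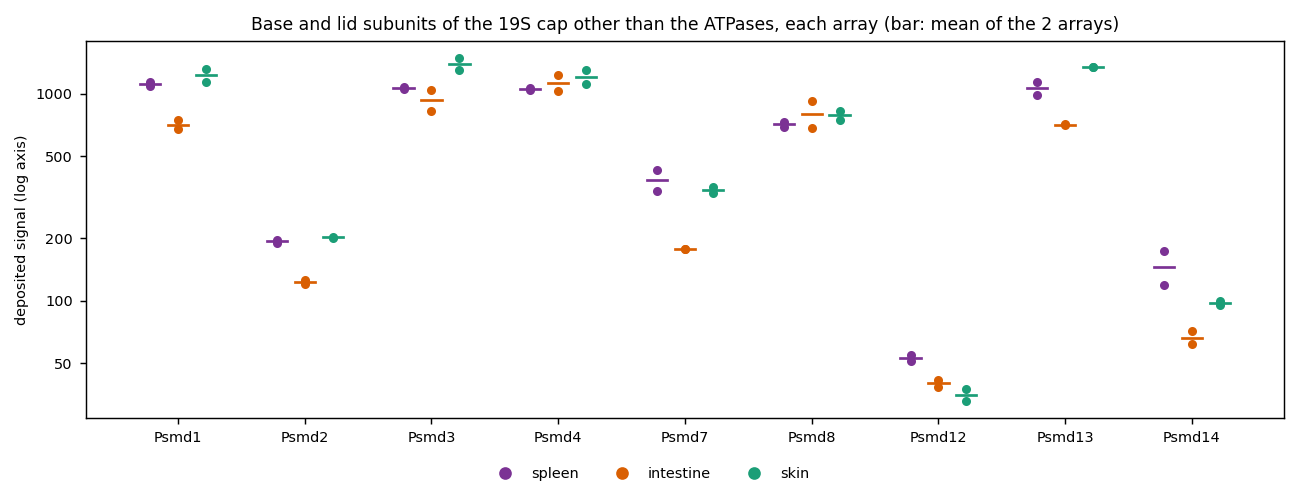
Deposited signal (vertical, log axis) on each array for the 9 tested base and lid subunits that are not ATPases; the bar is the mean of the 2 arrays of a tissue. Intestine lies below skin without overlap for the called Psmd1, Psmd2, Psmd3, Psmd7 and Psmd13, and for Psmd14, which was not called there. It lies above skin without overlap for Psmd12, and the share over all genes was not computed. Psmd13 runs from 705 in intestine to 1345 in skin.

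Of the 5 ATPases of the base that were tested none was called between intestine and spleen or between intestine and skin. Of all genes 49.2% and 38.8% were called there, and with 5 genes nothing is read from the count. Psmc4 rose in skin against spleen, with 736 and 672 for spleen, 670.04 and 639 for intestine and 839.6 and 842 for skin, by 0.40 ± 0.13 (adjusted p = 0.0482). Psmc2, a dim probe with 28.7 and 23.1, 12.0 and 12.5, and 12.8 and 11.4, fell by 0.47 ± 0.13 in skin against spleen (adjusted p = 0.0318). Each call ended without any 1 of the spleen or skin arrays, with adjusted p from 0.117 to 0.280 for Psmc4 and from 0.0877 to 0.261 for Psmc2. That of Psmc4 also ended with the deposited scaling alone (0.25, adjusted p = 0.167), over all kept probes (0.052), with no filter (0.127) and with the mean of the probes (0.11, 0.597). That of Psmc2 also ended under median scaling (-0.35, adjusted p = 0.0717), with an offset of 50 (-0.23, 0.0618) and with no filter (0.0813). A dim second Psmc4 probe gave -0.19. Psmc3 and Psmc5 were not called. In intestine against spleen the deposited scaling alone called Psmc2 lower, and in intestine against skin an offset of 50 called Psmc4 lower.

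Psmc1, singled out after its values were seen, separated by slide and not by tissue. Its signals were 2.0 and 132 for spleen, 30.4 and 73.7 for intestine and 3.2 and 117 for skin for replicates I and II. All 3 arrays of slide 2 were higher than all 3 of slide 1, by 2.21 ± 0.29 log2 units in the fit that blocks on the slide (adjusted p = 0.0463). In that fit 5 of the 14187 genes, or 0.0352%, were called between slides. Its tissue differences had an SE of 0.93, and no statement on Psmc1 between tissues can be made.

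Of the 3 chaperones tested that assemble the base, Psmd5 and Psmd10 fell in intestine against spleen, Psmd5 fell in skin against spleen, and Psmd9 was not called. Of all genes 28.3% fell in intestine and 11.5% in skin against spleen, and with 3 genes nothing is read from the counts. Psmd5 had 88.6 and 78.1 for spleen, 26.3 and 32.5 for intestine and 36.9 and 33.7 for skin, so its values in intestine and skin lay below those in spleen. It fell by 0.72 ± 0.14 in intestine against spleen, 1.64-fold (adjusted p = 0.00214), in all 15 alternatives, with values of -1.13 with the deposited scaling alone and -0.47 with an offset of 50. It fell by 0.68 ± 0.14 in skin against spleen (adjusted p = 0.0101), but not without spleen replicate I (0.116) or II (0.0665), and the offset of 50 gave -0.45. Intestine and skin differed by -0.03 ± 0.14.

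Psmd10, also known as gankyrin, had 252 and 260 for spleen, 97.2 and 121 for intestine and 166 and 168 for skin. It fell by 0.72 ± 0.14 in intestine against spleen, 1.65-fold (adjusted p = 0.00233), in all 15 alternatives, by 1.13 with the deposited scaling alone, and its other probes gave -0.90 and -0.87. Skin against spleen was -0.34 ± 0.14 (adjusted p = 0.104), and intestine against skin was -0.38 ± 0.14 (adjusted p = 0.0588, but 0.0494 in the fit that blocks on the slide). In skin against spleen the other probes gave -0.53 (adjusted p = 0.0378) and -0.19 (0.5025). In intestine against skin they gave -0.37 (0.0976) and -0.68 (0.0201). The chaperone Psmd9 was dim, and its probes had opposite signs in intestine against spleen (0.27 and -0.57, the second at an adjusted p of 0.0166). Median scaling called Psmd9 higher in intestine and in skin against spleen.

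Among the activators Psme3 rose and the interferon-inducible pair did not pass the test. Psme3, which forms a nuclear activator ring that works without ubiquitin, had 183 and 209 for spleen, 201 and 242 for intestine and 334 and 294 for skin. It rose by 0.91 ± 0.15 in skin against spleen, 1.88-fold (adjusted p = 0.00454, and 0.0596 without spleen replicate I). In intestine against spleen it rose by 0.55 ± 0.15 (adjusted p = 0.0137), but here the deposited signals overlap. That call ended with the deposited scaling alone (0.16, adjusted p = 0.381), without spleen replicate I (0.125) and without intestine replicate II (0.0619). Of the 31 calls it is the only 1 whose deposited signals overlap. Psme3 was the single subunit called higher in intestine than spleen, and its intestine against skin difference was -0.36 ± 0.15 (adjusted p = 0.0881), which passed with the deposited scaling alone (-0.48, 0.0249) and with an offset of 50 (-0.32, 0.0446).

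Psmf1, the inhibitor of the core, had 355 and 304 for spleen, 321 and 348 for intestine and 469 and 374 for skin. It rose by 0.56 ± 0.16 in skin against spleen, 1.47-fold (adjusted p = 0.0342). The call ended without either spleen array or skin replicate I (0.109 to 0.237), with the deposited scaling alone (0.33, adjusted p = 0.115) and with no filter (0.0729), and intestine against spleen was 0.33 ± 0.16 (adjusted p = 0.117).

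Psme1 and Psme2 encode the chains of the activator that interferon-gamma induces together with the immunoproteasome. Psme1 was bright, with 1970.2 and 1867 for spleen, 2132 and 1965 for intestine and 2269 and 2006 for skin. Its differences of 0.06, 0.14 and -0.08, each ± 0.14, did not pass, and a second probe gave -0.16, -0.30 and 0.15. Psme2 had 169 and 142, 96.7 and 106, and 121 and 106, with differences of -0.12, -0.14 and 0.02, each ± 0.15. In intestine against spleen median scaling called Psme1 higher (0.45, adjusted p = 0.0163), and the deposited scaling alone called Psme2 lower (-0.55, adjusted p = 0.00751) and Psme4 lower (-0.75, adjusted p = 0.00107). Psme2b is a near-identical copy of Psme2, so signals of both symbols are uncertain, and it was not called (706 and 606, 472 and 474, 585 and 536). The deposited scaling alone called Psme2b lower in intestine against spleen. Psme4, a large activator ring known from sperm cells and DNA repair, had 129 and 109.6, 68.4 and 59.9, and 94.2 and 81.1, and its difference of -0.33 ± 0.15 in intestine against spleen did not pass (adjusted p = 0.0841), though it did under median scaling (-0.39, 0.0381). Its dimmer probe had the other sign in intestine against skin (0.24 against -0.21).

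**Figure D5:**
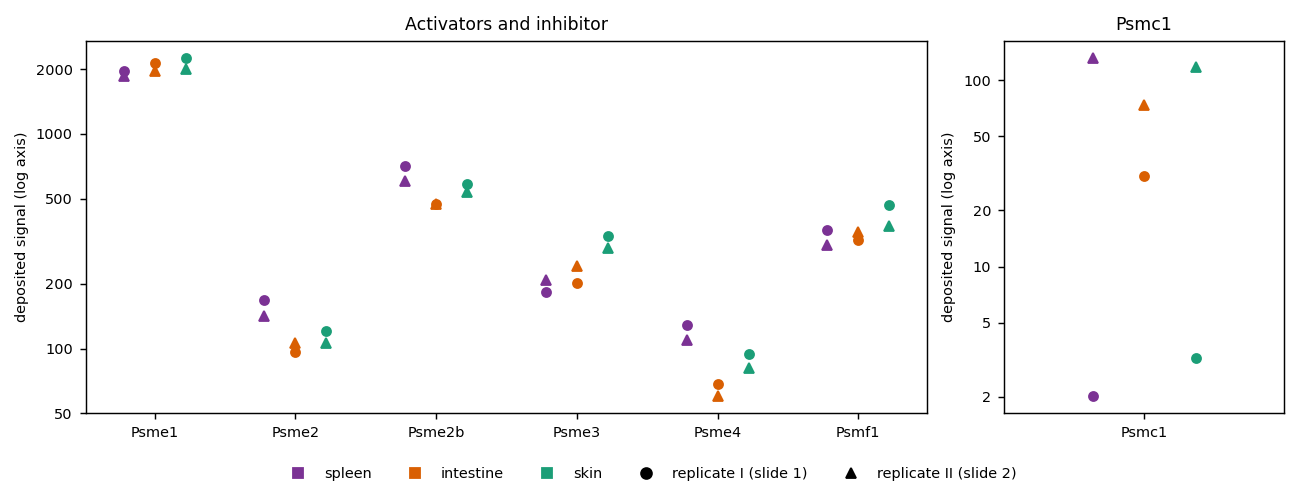
Deposited signal (vertical, log axes that differ between the panels) on each array for the activators and the inhibitor (left) and for Psmc1 (right), with circles for replicate I on slide 1 and triangles for replicate II on slide 2. Psme3 reaches 334 and 294 in skin against 183 and 209 in spleen, and the triangles of Psmc1 lie above all its circles.

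Psmc3ip, which the naming rule takes in, was dim, with 35.8 and 25.4 for spleen, 8.97 and 9.85 for intestine and 41.4 and 48.0 for skin. The tissues lay in separate ranges. It fell by 1.24 ± 0.15 in intestine against skin, 2.37-fold (adjusted p = 0.000118), a call that held in all 15 alternatives. With an offset of 50 that fall was 0.68, or 1.60-fold, and the differences from spleen were -0.32 in intestine and 0.36 in skin. It fell by 0.64 ± 0.15 in intestine against spleen (adjusted p = 0.00505, and 0.0945 without spleen replicate I). In skin against spleen it rose by 0.60 ± 0.15 (adjusted p = 0.0181), which ended without any 1 of the spleen or skin arrays (0.0594 to 0.189) and with the deposited scaling alone (0.39, adjusted p = 0.0685). The proliferation markers had the same order of tissues, with Mki67 at 1.78 in skin against spleen and at -2.51 in intestine against skin, and their part in the values of Psmc3ip was not tested.

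Probes of 1 gene did not always have the same sign. Of the 14 genes with more than 1 kept probe, 4 had another probe of opposite sign in intestine against spleen, 8 in skin against spleen and 5 in intestine against skin. Some of these pairs were smaller than their SE, such as Psmb7 in intestine against spleen (-0.05 ± 0.13 and 0.09 ± 0.16). The share over all genes with several probes was not computed. Among genes called by their brightest probe, the sign turned for Psmc4 and Psmd13 in skin against spleen and for Psmd7 in intestine against skin. In addition 12 of the 72 probes were detected on no array, and 8 of these belong to 7 genes that another probe detected (Psma1, Psma3, Psmb3, Psmd3, Psmd5, Psmd8 and Psmf1), with no signal above 8.66. A low value of a single probe on this array thus does not show that the gene is silent.

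Of 14 tested partners in the ubiquitin pathway, from a list of cap subunits outside the naming rule, deubiquitinases, shuttles, the segregase, ubiquitin genes and regulators, 3 rose in intestine against spleen and none fell. They were Nfe2l2, Rad23b and Adrm1, with a median of 0.06 over the 14 against -0.05 over all genes. The higher calls were near the share of all genes called higher, 20.9%, and so say nothing of the partners as a group, while 28.3% of all genes were called lower. Nfe2l2, the oxidative stress factor, had 77.0 and 82.7, 145 and 85.3, and 41.3 and 36.0, and rose by 0.84 ± 0.20 against spleen (adjusted p = 0.00632) and by 1.38 ± 0.20 against skin (adjusted p = 0.000432). Nfe2l1, which drives proteasome subunit genes when the proteasome is inhibited, was not called (0.12 ± 0.13 against spleen).

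The shuttle gene Rad23b, at 0.46 ± 0.16 in intestine against spleen (adjusted p = 0.0361), had overlapping deposited signals of 94.6 and 114 in spleen and 100.3 and 114 in intestine. Its other probe gave 0.58 there (adjusted p = 0.0128) and 0.77 against skin (adjusted p = 0.00354), where the brightest was not called. The cap ubiquitin receptor Adrm1, at 0.44 ± 0.13 against spleen (adjusted p = 0.0204), had overlapping deposited signals of 135 and 123 in spleen and 126 and 136 in intestine. A second Adrm1 probe was not called against spleen (0.27, adjusted p = 0.16) or skin (0.08, adjusted p = 0.736). In skin against spleen 1 of the 14 rose, the segregase Vcp (0.42 ± 0.13, adjusted p = 0.0411), where 12.7% of all genes rose. In intestine against skin 2 rose (Nfe2l2, Adrm1), where 16.4% of all genes rose, and 1 fell, Ufd1l (-0.37 ± 0.13, adjusted p = 0.048), where 22.4% fell.

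Of 4 tested genes that supply peptides to MHC class I, 1 was called, Tap2, the other transporter chain. It had 1057 and 1063 for spleen, 832 and 924 for intestine and 1157 and 1253 for skin, and fell by 0.42 ± 0.14 in intestine against skin (adjusted p = 0.0379), where 22.4% of all genes fell.

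Of 4 tested genes of interferon-gamma signalling, Jak2 and Ifngr1 rose in intestine against both other tissues, Irf1 rose against skin, and Jak1 fell against spleen. Of all genes 20.9% rose against spleen and 16.4% against skin, and with 4 genes nothing is read from these counts. Ifngr1, a receptor chain, had 729 and 642 for spleen, 2131 and 1495 for intestine and 476 and 582 for skin, and rose by 1.46 ± 0.17 (adjusted p = 9.79e-05) and 1.68 ± 0.17 (adjusted p = 5.29e-05) against spleen and skin. Jak2 rose by 2.20 ± 0.17 and 2.26 ± 0.17 on its brightest probe, and a dim probe gave 0.40 and 0.04. Jak1 fell in intestine against spleen (-0.98 ± 0.18, adjusted p = 0.00125). Irf1, a factor that acts on immunoproteasome genes, had 789 and 792, 1055 and 768, and 456 and 397, lower in skin than spleen (-0.73 ± 0.16, adjusted p = 0.0126) and higher in intestine than skin by 1.06 ± 0.16 (adjusted p = 0.000564). Between intestine and skin Irf1 and Ifngr1 were higher in intestine, and Psmb8 and Psmb9 lower. Whether these differences are related was not tested.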

How the data were processed

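The members and gene lists were chosen with earlier results of these data known. The deposited tables give each probe's average intensity per the file headers; 30.7% to 32.7% of values per array are below 0, so a background had been subtracted, and the arrays share 1 mean. BeadStudio 1.5.1.3 is the software in the submitters' processing notes. The same deposited tables pair every intensity with a detection p-value. Its computation is not stated there. A table of unscaled intensities served as an alternative.

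An offset of 16 was added, log2 taken and the arrays quantile normalized. Probes with a detection p under 0.01 on both arrays of a tissue were kept (18583), and the brightest kept probe stood for each file symbol (14187 genes). All 6 arrays were fitted with a mean per tissue by limma 3.58.1 in R 4.3.3 (lmFit, eBayes, 3 residual degrees of freedom), Benjamini-Hochberg adjusted, and the method was tested on simulated data. The number of arrays limits the precision: the median SE was 0.15. Values of other probes come from the fit over all kept probes. Genes were named by role (catalytic subunits, activators) and, per other class, by the called members with the largest rise and fall, and all further called genes were added afterwards. Header slide numbers pair the replicates: replicate II minus I correlated between tissues across genes by 0.15 (spleen, intestine), 0.21 (spleen, skin) and 0.11 (intestine, skin). Some genes of the pathway lists are not reported here, and counts leave them out.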

Additional observations from a re-analysis of the deposited data

How the results depend on the processing

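Of the 31 calls of proteasome genes, 10 held in all 15 alternatives and 21 were lost in at least 1, and none reversed. Of 26 further differences that were followed without a call, 11 turned sign in at least 1 alternative. The cause was not tested where a call was lost, other than that fewer arrays leave fewer degrees of freedom. In intestine against spleen, higher calls (1) became 9 under median scaling and 0 with the deposited scaling alone, and lower calls (11) became 18 with the deposited scaling alone. In skin against spleen, higher calls (5) became 9 under median scaling, 2 with the deposited scaling alone, 2 without a filter on dim probes and 3 with the mean of a gene's probes, which was added after seeing the data. Lower calls (3) became 1 under median scaling, 8 with the deposited scaling alone and 1 without a filter. Calls over all genes in that comparison fell from 3437 to 1876 without a filter.

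Leaving out each array in turn gave 0 to 1 higher and 6 to 11 lower in intestine against spleen, 0 to 6 higher and 0 to 6 lower in skin against spleen, and 6 to 12 lower in intestine against skin. Calls over all genes ran from 4264 to 7015 in intestine against spleen and from 513 to 4970 in skin against spleen. A lone array was assumed to vary like the other tissues. With the replicate number, which is also the slide, as a block, the counts were 1 higher and 11 lower, 6 higher and 4 lower, and 0 higher and 13 lower, and the block kept all 31 calls and added Psma1 lower and Psmd3 higher in skin against spleen (adjusted p = 0.0499 and 0.0353) and Psmb10 and Psmd10 lower in intestine against skin (0.0496 and 0.0494). Dim probes limit Psmc2, Psmc3ip and Psmd9, whose signals lie close to the offset of 16. The unscaled signals, also added afterwards, gave counts within 1.5 times the main ones.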
